A study of Drosophila melanogaster with 3 samples.

Results

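The genes examined were 10 components of the epidermal growth factor (EGF) receptor and Ras pathway of Drosophila melanogaster, out of 13968 protein-coding genes on the chromosome arms. They were spi and vn (ligands), Egfr (the receptor), Sos and Ras85D (activation of Ras), rl (the kinase at the end of the cascade), pnt and aop (transcription factors), and sty and aos (inhibitors). A gene was given every summit of FoxP-GFP binding that lay inside it or up to 5 kb upstream, counted from the outermost annotated start. By this rule 6 of the 10 genes (60%) had a summit, against 19% of all protein-coding genes, and they had 18 summits in all. Of the 10, 5 had at least 3 summits (Egfr 4, pnt 4, spi 3, aop 3 and aos 3), as did 1.7% of all protein-coding genes. The ligand gene vn had 1, and Sos, Ras85D, rl and sty had none. These shares are not matched for gene length. Of all protein-coding genes 10476 are shorter than 5 kb, as is only Ras85D of the 10, and 13.9% of them had a summit. Of genes of 40 kb or more, 48.7% had one. The 10 genes were chosen with earlier results of these data known. Most of the 18 summits lay in long introns, none lay in an exon, and none was among the strongest of the list.

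Binding was mapped by chromatin immunoprecipitation with sequencing (ChIP-seq) in whole prepupae, the stage between larva and pupa. All samples came from 1 transgenic line that expresses FoxP (also called fd85E, a forkhead transcription factor) with GFP at its C-terminal end, and the precipitation used an antibody against GFP. The 3 biological replicates, of males and females together and of unknown age, form a single group with no other genotype or treatment, so no test was made and all values are descriptions. What drives the transgene is not given in the sources used here, and in whole animals strong binding in few cells and weak binding in many cannot be told apart.

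There were 5 lists of regions in dm6 coordinates: 1 for each replicate (30000, 24326 and 22698 regions for replicates 1, 2 and 3), 1 of the pooled reads (30000) and the thresholded list, which held the 2415 best-ranked pooled regions. Of these 2415, 20 were mitochondrial and 2395 lay on the arms. Each region has a summit and a signal value, a score given by the authors with no stated scale. The read depth is unknown. Signal values have no replicate error in the pooled list and were not compared across lists, where the rank was used in their place (1 is the highest signal value of a list). A summit is called thresholded where it belongs to the thresholded list, and a replicate is said to hold a region where 1 of its own 2415 best-ranked regions overlaps it by at least 1 bp.

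As background, EGF receptor signalling runs from secreted ligands through a receptor tyrosine kinase to Ras and a kinase cascade that ends in the fly ERK, encoded by rl. In the nucleus the pathway activates the ETS factor Pointed and removes the ETS repressor encoded by aop (also called Yan), and it induces its own inhibitors. In larval and pupal tissues of the fly it is best known for recruiting photoreceptors in the eye disc and for specifying wing veins.

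The sequences under the summits are shown first, because they carry the positions and words referred to below. For spi, vn, pnt and aos, the 201 bases centred on the best-ranked summit of each are given on the plus strand of release 6 of the genome (RefSeq), and for pnt also those with the most copies of GAGAG. Capitals mark TGTTTA, a forkhead core, and GAGAG, the core bound by the GAGA factor, on either strand (TAAACA and CTCTC).
spi, summit 2, chr2L:19575662-19575862: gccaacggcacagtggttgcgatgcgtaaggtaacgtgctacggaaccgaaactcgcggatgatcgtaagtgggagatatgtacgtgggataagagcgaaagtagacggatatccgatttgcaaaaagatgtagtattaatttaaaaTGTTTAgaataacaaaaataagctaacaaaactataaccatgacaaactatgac
vn, chr3L:5834349-5834549: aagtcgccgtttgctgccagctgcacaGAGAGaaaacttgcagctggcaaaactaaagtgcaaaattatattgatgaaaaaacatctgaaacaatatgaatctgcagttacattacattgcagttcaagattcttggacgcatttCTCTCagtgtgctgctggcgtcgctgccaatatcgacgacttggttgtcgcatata
pnt, summit 1, chr3R:23334350-23334550: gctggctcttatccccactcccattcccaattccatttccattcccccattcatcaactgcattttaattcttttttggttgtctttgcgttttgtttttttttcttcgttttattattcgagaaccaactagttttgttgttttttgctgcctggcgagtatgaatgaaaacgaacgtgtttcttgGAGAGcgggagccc
pnt, summit 4, chr3R:23295400-23295600: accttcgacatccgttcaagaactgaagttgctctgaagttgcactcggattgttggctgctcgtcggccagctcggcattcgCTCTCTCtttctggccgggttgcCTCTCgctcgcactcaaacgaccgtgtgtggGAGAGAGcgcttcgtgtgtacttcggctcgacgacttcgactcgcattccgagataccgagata
aos, summit 2, chr3L:16480471-16480671: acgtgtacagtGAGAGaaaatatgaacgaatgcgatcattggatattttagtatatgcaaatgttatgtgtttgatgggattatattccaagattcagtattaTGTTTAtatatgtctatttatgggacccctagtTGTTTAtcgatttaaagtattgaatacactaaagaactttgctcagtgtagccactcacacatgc
The stretches differ in composition: the window at pnt summit 4 was 56.2% G or C and that at aos summit 2 was 32.8%. Over the 18 windows the share ran from 24.4% to 56.2% with a median of 39.6%, and the median of all thresholded arm windows was 36.8%.

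**Figure D1:**
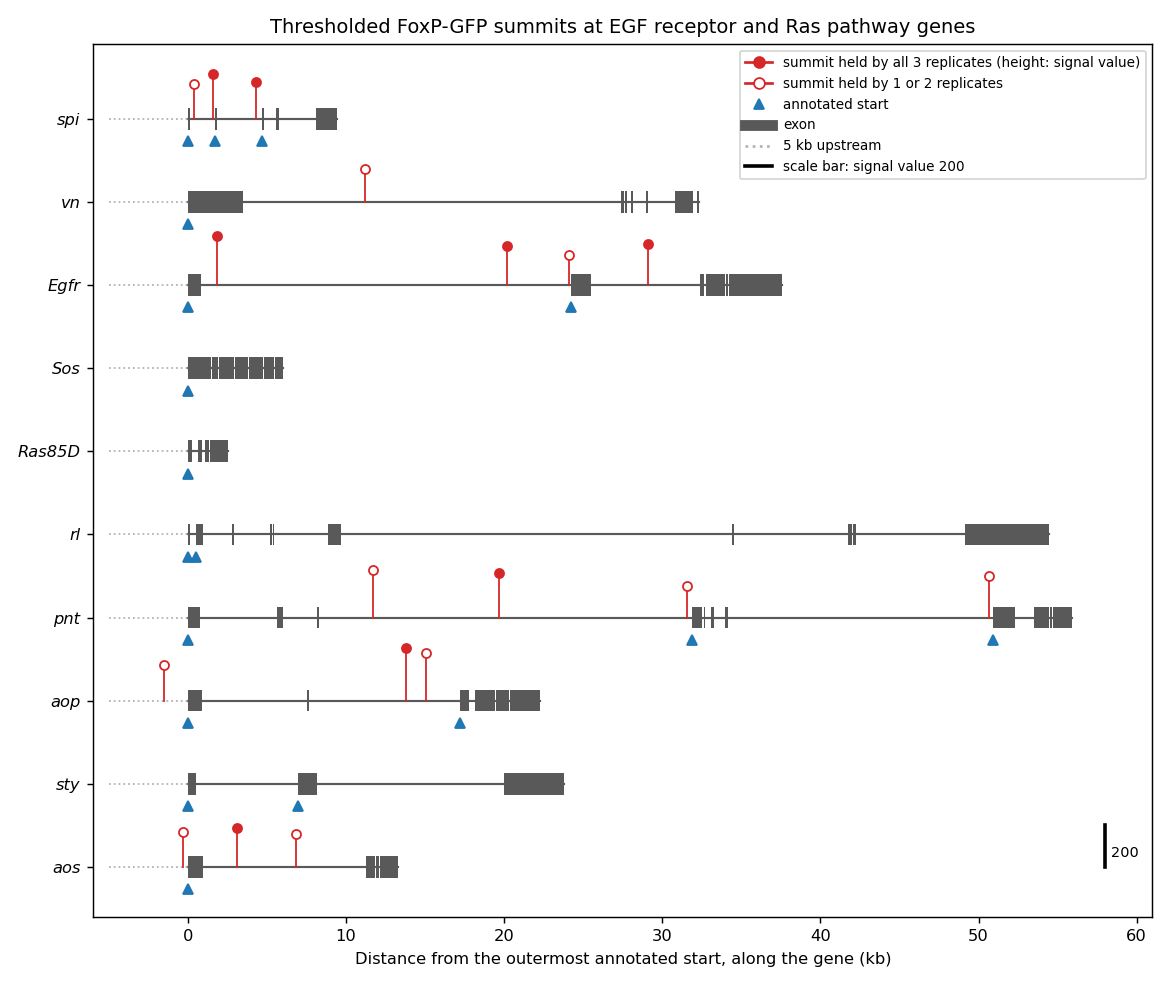
Maps of the 10 genes drawn along their own direction, with the distance from the outermost annotated start in kb on the horizontal axis; grey boxes are exons, triangles are starts, and each red stem is a thresholded summit whose height is its pooled signal value. The 18 stems stand over introns or upstream of the gene and over no exon; filled circles are the 8 summits that all 3 replicates held.

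Among the ligands, spi encodes a TGF-alpha-like protein made as a membrane-bound precursor. The gene is 9.4 kb long (2L, 19567900 to 19577315, minus strand) and has 3 annotated starts, and each of the 3 had a thresholded summit within 500 bp. All 3 summits lay in the first intron of transcript spi-RF, which is 7959 bp long. Summit 2 (19575554 to 19575969), 175 bp upstream of the start of spi-RG, was the strongest, with a signal value of 214 and rank 962. Its rank was 1152 in replicate 1, 1649 in replicate 2 and 542 in replicate 3, with signal values of 76.3, 57.9 and 82.6, so that every replicate held it. Summit 3 (19572799 to 19573214), 397 bp upstream of the start of spi-RB, had 176 and rank 1455, and ranked 1577, 1510 and 953 in the replicates. Summit 1 (19576693 to 19577108) lay 414 bp downstream of the outermost start, with 166 and rank 1636. Replicate 1, where it ranked 2825, did not hold it, whereas replicates 2 and 3 did, at ranks 2016 and 1193. Replicate 3 thus placed all 3 spi summits higher than the other replicates did.

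The second ligand gene, vn, encodes a secreted neuregulin-like protein. It is 32.3 kb long (3L, 5813338 to 5845664, minus strand) with 1 annotated start, and it had 1 thresholded summit (5834241 to 5834656), 11215 bp downstream of the start and 32.4% of the way into a first intron of 23921 bp. The signal value was 160 and the rank 1754. Replicates 1 and 2 ranked it 1815 and 1422 and held it, and replicate 3 ranked it 4311 and did not. The signal values in the replicates were 61.6, 62.4 and 31.8, in the same order. The next region of vn in the pooled list was in the same intron, with rank 2942 and a signal value of 121.

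Egfr encodes the single EGF receptor of the fly. The gene (2R, 21522420 to 21559977, plus strand, 37.6 kb) has 2 starts, and its 4 thresholded summits all lay in the first intron of Egfr-RA, which spans 31587 bp and contains the start of Egfr-RB. Summit 1 (21524021 to 21524436), 1809 bp downstream of the first start, had a signal value of 234 and rank 809, and it ranked 585, 1469 and 796 in the replicates. Summit 2 (21542383 to 21542798), 4052 bp upstream of the start of Egfr-RB, had 187 and rank 1288, and ranked 1154, 1318 and 2109. The start nearest to it belongs to another gene inside the intron, CG30283, at 2018 bp. It was the only 1 of the 18 summits that was nearer to a start of another protein-coding gene than to one of its own.

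Summit 4 of Egfr (21551313 to 21551728), 4878 bp downstream of the start of Egfr-RB, had a signal value of 199 and rank 1118, and its ranks of 1230, 1403 and 1165 were the closest together of the 4. Summit 3 (21546302 to 21546717) was the summit at a promoter, 133 bp upstream of the start of Egfr-RB, and also the weakest of the 18, with 144 and rank 2138. Replicate 1 ranked it 1361 and held it, whereas replicates 2 and 3 ranked it 3409 and 2680 and did not. All 3 replicates held the other Egfr summits, none of which lies within 500 bp of a start.

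Sos encodes the exchange factor that loads Ras with GTP, and Ras85D encodes the Ras protein itself. Sos (2L, 13813816 to 13819824, 6.0 kb) had no region in the pooled list, and the best in any replicate was upstream of the gene at rank 17334, in replicate 3. At Ras85D (3R, 9510561 to 9513067, 2.5 kb) the best pooled region lay 4416 bp upstream of the start, with rank 12304 and a signal value of 53.2. Of all protein-coding genes, 69% had a pooled summit, and Sos was the only 1 of the 10 genes without one.

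The ERK gene rl (2R, 1071462 to 1125927) is 54.5 kb long, about as long as pnt, and had no thresholded summit. It had 4 regions in the pooled list, the best in a 5′ UTR with rank 15429 and a signal value of 47.1. Few regions were called anywhere near it. Within 250 kb of the gene, with the gene itself included, there were 0 thresholded summits and 0.162 pooled summits per 10 kb. Such stretches at the other 9 genes, also with the gene included, held 2.3 to 3.63 pooled summits per 10 kb. The arms as a whole had 2.24 per 10 kb. The gene is known to lie in the pericentromeric heterochromatin of its arm.

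The pair of nuclear factors gave 7 of the 18 summits. pnt, which encodes the ETS activator Pointed, covers 55.9 kb (3R, 23290231 to 23346167, minus strand) with 3 starts and had 4 thresholded summits. Those with the highest signal values lay far from any start. Summit 1 (23334242 to 23334657), 11717 bp downstream of the outermost start in intron 3 of pnt-RB, had a signal value of 229 and rank 847. Replicates 2 and 3 ranked it 649 and 896, and replicate 1 ranked it 2523 and did not hold it. Summit 2 (23326288 to 23326703), in the same intron and 12181 bp upstream of the start of pnt-RD, had 214 and rank 961. It was the 1 pnt summit that all replicates held, at ranks 1135, 963 and 1600.

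The other pnt summits were at internal promoters. Summit 3 (23314370 to 23314785) lay 263 bp upstream of the start of pnt-RD and had a signal value of 151 and rank 1954. Summit 4 (23295292 to 23295707) lay 262 bp upstream of the start of pnt-RC and had 199 and rank 1124. Replicate 2 held neither, with ranks of 4463 and 2808, whereas replicate 1 ranked them 2134 and 1212 and replicate 3 ranked them 1146 and 688. No thresholded summit lay within 500 bp of the outermost pnt start.

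aop encodes the ETS repressor that opposes Pointed (2L, 2156484 to 2178754, minus strand, 22.3 kb, 2 starts). Its summit 2 (2164766 to 2165181) was the strongest of all 18, with a signal value of 253 and rank 676, and it lay in the first intron, 3447 bp upstream of the start of aop-RA. It ranked 769, 560 and 1138 in replicates 1, 2 and 3, with signal values of 91, 97.4 and 60.4. Summit 3 (2163491 to 2163906) stood 1275 bp away in the same intron, with 229 and rank 838. Replicates 2 and 3 placed it high, at 473 and 665, and replicate 1 placed it at 2483, just outside its 2415 best-ranked regions. Summit 1 (2180045 to 2180460) lay 1499 bp upstream of the gene, with 170 and rank 1559. Replicates 1 and 2 held it, at ranks 1920 and 1007, and replicate 3 did not, at rank 3457. Neither annotated start of aop had a summit within 500 bp.

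The inhibitors differed. aos encodes Argos, a secreted protein that binds the ligand Spitz, and had 3 thresholded summits over 13.3 kb (3L, 16470386 to 16483650, minus strand), all inside the span of CG33158, a gene on the other strand. Summit 1 (16483754 to 16484169) lay 312 bp upstream of the only start, with a signal value of 170 and rank 1558, and it ranked 3445, 1266 and 1370 in the replicates. Summit 2 (16480363 to 16480778), 3079 bp into the gene, had 185 and rank 1323. Its ranks of 1059, 1364 and 2403 kept it among the best 2415 of every replicate, in replicate 3 only just. Summit 3 (16476593 to 16477008) lay 6849 bp downstream of the start, with 156 and rank 1829, and replicate 2, at rank 2585, did not hold it. Summits 2 and 3 are in the first intron, which is 10306 bp long.

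sty encodes Sprouty, an intracellular inhibitor that the pathway induces. Although it is 23.8 kb long (3L, 3401153 to 3424935) and had 20 regions in the pooled list, none was thresholded. Its best pooled region (3420295 to 3420710, in an intron) had rank 3876 and a signal value of 103, and ranked 9866, 3857 and 3150 in the replicates. Replicate 2 alone had a region among its best 2415 there, at rank 2135 (3418273 to 3418662), and the matching regions ranked 8106 in replicate 1 and 6289 in replicate 3. Pooled regions were as dense at sty (6.95 per 10 kb) as at spi (6.94) and aos (6.57).

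The threshold falls in a continuous range: the lowest thresholded region and the first one below it both had a signal value of 134. Just inside it was Egfr summit 3, at rank 2138. The best outside were regions of spi at rank 2637 (signal value 128), vn at 2942, Egfr at 3006 (120) and aop at 3171 (117). At aos the next region stood further down, at rank 5467 (85.2). With the pooled list taken to rank 4830, double the length, 7 of the 10 genes had a summit, sty now among them, beside 29.7% of all protein-coding genes. The whole pooled list held 144 summits at the 10 genes.

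By position, 16 of the 18 summits were in introns of their own gene and 2 were upstream of it. With introns of any protein-coding gene counted, and no exon, it was 17 of 18, against 54.1% of arm summits, a difference partly fixed by the rule, which takes only summits in or near these genes. In the first intron lay 12 of the 16, against 55.2% of all arm summits in an intron of some transcript. Within 500 bp of a protein-coding start lay 7 summits (38.9%), against 45.5% of arm summits, and 6 of the 7 were upstream of the start, where 77.8% of arm promoter summits lay. A further 10 summits (55.6%) were in introns away from promoters, against 38% of arm summits, 1 was outside genes (14.9% of arm summits), and none was in an exon (1.59%). Beyond 1 kb of any start lay 11 summits, against 45.3% of arm summits, and beyond 5 kb lay 4, against 21%. Of the 18 annotated starts of the 10 genes, 7 had a summit within 500 bp (38.9%), against 8.42% of all protein-coding starts and 11.6% of the starts of genes that have several.

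Signal values at these genes kept to the middle of the list. They ran from 144 to 253 with a median of 186, beside a median of 192 over the arms, 188 over arm intron summits and 198 over arm promoter summits. There were 655 arm regions (27.3%) above the best of the 18, and 8 of the 18 were above the arm median. All 18 regions had the same width, 416 bp.

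Long genes have more summits, so the counts were also set beside genes of similar length. Of genes of 20 to 40 kb, 39.5% had a summit and 9.42% had at least 3. In that class were vn with 1 summit, Egfr with 4, aop with 3 and sty with none. Of genes of 40 kb or more, 48.7% had a summit and 16.2% at least 3, beside pnt with 4 and rl with none. spi had 3 summits in the class of 5 to 10 kb, where 26.5% of 1507 genes had a summit and 1.86% at least 3, and Sos, of the same class, had none. aos, of 10 to 20 kb, also had 3, and 36.8% of its class had a summit and 5.39% at least 3. Of 10476 genes under 5 kb, the class of Ras85D, 13.9% had a summit. Over the 307.5 kb of gene and upstream sequence of the 10 genes there were 0.585 thresholded summits per 10 kb, and 0.179 over the arms. The value for the arms includes sequence outside genes, so the densities are not for like sequence. The density over the spans of other genes is not given. Pooled summits within 250 kb of each gene except rl were at 2.3 to 3.63 per 10 kb, beside 2.24 over the arms. These stretches include the gene and its own summits, so they do not give the density of the surroundings alone.

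**Figure D2:**
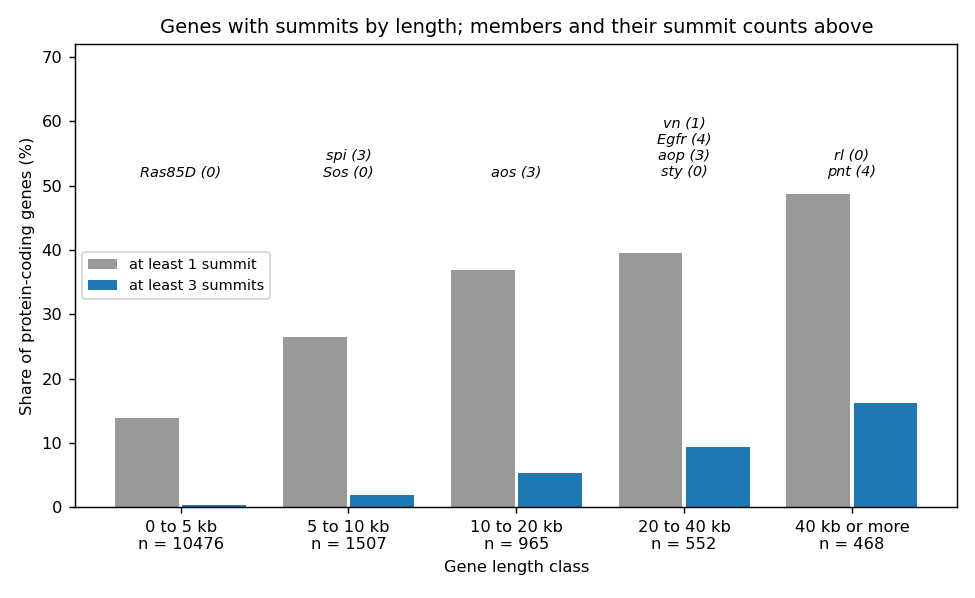
Share of protein-coding genes (%, vertical axis) with at least 1 (grey bars) and at least 3 (blue bars) thresholded summits, by class of gene length; the 10 genes are written above their class with their number of summits. Both shares increase with length, from 13.9% to 48.7% and from 0.286% to 16.2%, and spi and aos have 3 summits in classes where 1.86% and 5.39% of genes do.

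Every one of the 18 summits had a matching region in each replicate list, within 200 bp. The replicate lists are long and include background regions, and the share of all arm regions with such a match is not given. All 3 replicates held 8 of the 18 summits (44.4%), 9 were held by 2 replicates and 1, Egfr summit 3, by 1. Of all thresholded arm regions 59.1% were held by all 3, and of the 1463 arm regions within the same range of ranks, 50.9%. Replicates 1, 2 and 3 held 14, 14 and 15 of the 18 (77.8%, 77.8% and 83.3%), beside 78.5%, 82% and 77.7% of the arm regions in that range. The share held at these genes was thus close to the background for their ranks. Among the 9 held by 2 replicates, the one that did not hold the summit varied. It was replicate 1 for summit 1 of spi, pnt and aos and for aop summit 3, replicate 2 for pnt summits 3 and 4 and aos summit 3, and replicate 3 for vn and aop summit 1. Ranks ran from 585 to 3445 in replicate 1, 473 to 4463 in replicate 2 and 542 to 4311 in replicate 3. Summits in the replicates lay a median of 10.5, 8.5 and 19 bp from the pooled summit.

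**Figure D3:**
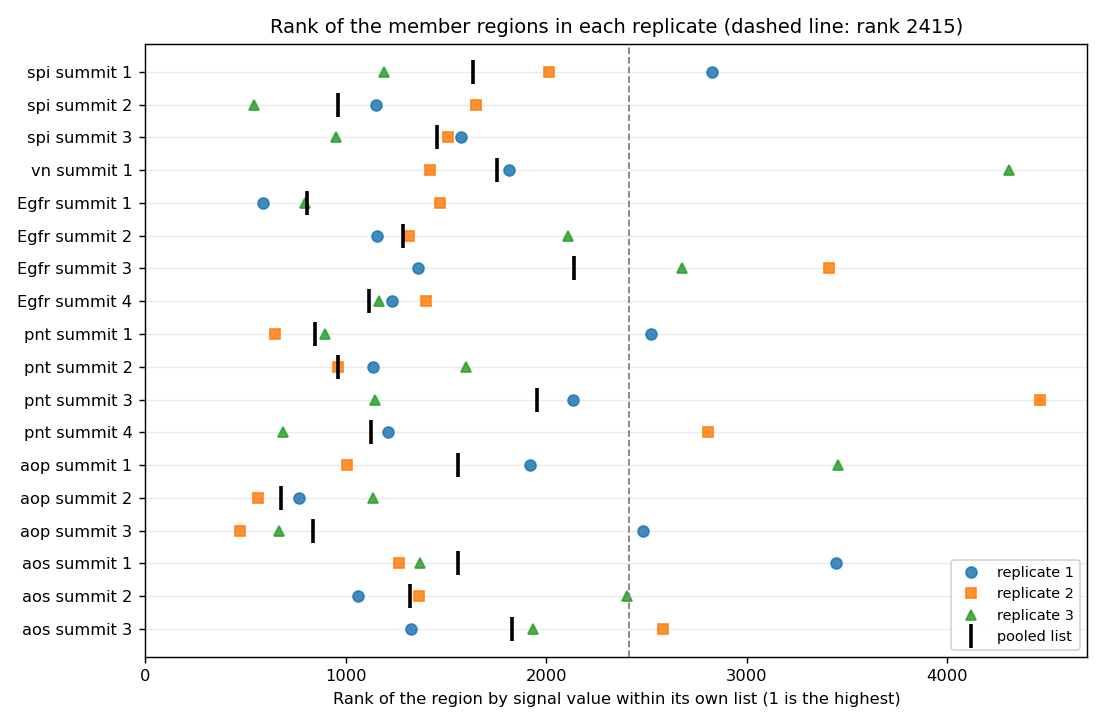
Rank by signal value of the region matching each of the 18 summits (1 row per summit) in replicates 1, 2 and 3 (circle, square, triangle) and in the pooled list (bar); the horizontal axis is the rank within each list, 1 being the highest, and the dashed line marks rank 2415. The ranks run from 473 to 4463, and for 8 summits all 3 symbols stand left of the line.

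Words known to be bound by transcription factors were counted in the 201-base windows on both strands, with the share of all 2395 thresholded arm windows beside them. The full forkhead words TGTTTAC and TATTTAC were in 0 of the 18 windows, and in 5.34% and 7.77% of arm windows. The shorter core TGTTTA, which is part of the first word, was in 4 (22.2%), against 23.5%. These were spi summit 2, pnt summit 3, aop summit 2, where it lay 1 bp from the summit, and aos summit 2, which had 2 copies. By class it was in 2 of 7 promoter windows, against 24.2% of such arm windows, and in 2 of 10 intron windows, against 24.1%. The ETS core CCGGAA, of the family of Pointed and the aop product, was in 0 windows and in 3.97% of arm windows, and the promoter word TATCGATA in 0 and 1.84%.

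GAGAG was in 12 of the 18 windows (66.7%), against 33.3% of arm windows. In introns away from promoters it was in 8 of 10, beside 30.7% of such arm windows, and at promoters in 4 of 7, beside 37.3%. At least 3 copies were in 3 windows, all at internal promoters: Egfr summit 3 with 9, pnt summit 4 with 5 and pnt summit 3 with 3. Overlapping copies were counted separately, so a longer GA run counts more than once. Among arm windows 10.2% had at least 3.

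The longest word that at least 5 of the windows shared was CACTGAGAGAAA, which contains GAGAG. It was looked for after the counts above had been seen, so its count at these genes supports nothing by itself. It was in 5 of the 18 windows (27.8%), in 4 genes: vn, Egfr summit 2, pnt summit 2, and aop summits 2 and 3. All 5 lie in introns away from promoters, so they are among the 8 of 10 such windows with GAGAG. The stretches below, read along the strand of the word, show that the bases beside it differ between the sites (the word is in capitals, and the sites at Egfr and aop summit 2 are not shown).
vn, chr3L:5834481-5834512, minus strand: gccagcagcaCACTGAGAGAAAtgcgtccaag
pnt, summit 2, chr3R:23326402-23326433, plus strand: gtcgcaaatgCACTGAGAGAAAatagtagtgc
aop, summit 3, chr2L:2163714-2163745, minus strand: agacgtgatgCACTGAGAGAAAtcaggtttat
The word lay 30 to 78 bp from the summit. Without the windows that contain it, GAGAG was in 7 of the remaining 13 (53.8%), beside 32% of the 2348 arm windows without the word. Over the arms the word was in 47 thresholded windows (1.96%) and in 1 of 4790 windows placed 1000 bp to either side of a summit (0.0209%). Of its 688 copies on the arms, 63 were inside a thresholded region and 265 inside a pooled region, regions that cover 0.681% and 8.52% of the arms. The counts over the arms include the 5 windows from which the word was taken. The 10 genes and their upstream stretches contained 6 copies, of which 5 were under these thresholded summits and the sixth, at aos, was in no pooled region. Of the 47 windows, 37 lay beyond 1 kb from a start, beside 45.3% of arm summits. All 3 replicates held 35 of the 47, beside 59.1% of arm regions. Their median signal value was 229, beside 192 over the arms.

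Around these genes, 45 further components of the pathway and of other receptor tyrosine kinase pathways were looked up by the same rule. A summit was found at 17 (37.8%), beside the 19% of all protein-coding genes, with gene length not matched. At 14 of the 45, a summit was nearest to a start of the gene itself. The list of adaptors and kinases downstream of the receptor had the highest share, with 20 summits at 6 of 8 genes (75%). At 4 of these 8 genes, a summit was nearest to a start of the gene itself. Raf, the kinase that Ras activates, alone had 10 summits over 48.4 kb, of which 8 were nearest to its own start and 7 were held by all 3 replicates. Its best (X, 2300607 to 2300813) lay in an intron 5242 bp from a start, with a signal value of 403, rank 214 and ranks of 299, 203 and 153 in the replicates. The higher values at Shc (612) and cnk (462), both adaptor or scaffold genes, came from summits 215 bp from the start of aay and 269 bp from that of l(2)k01209, so their placement by the rule does not tie them to Shc or cnk. The remaining 3 genes of that list with a summit were drk, csw and dos. The best summit counted at dos (251) lay 2 bp from the start of RpL8. None was found at ksr, a scaffold gene, or Dsor1, which encodes the kinase that activates the rl product.

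Of the nuclear regulators, 4 of 7 had a summit, and 3 of these had one above every summit of the 10 genes. They were gro, a corepressor gene (signal value 438, 115 bp upstream of a start), edl, whose product binds ETS factors (434, in an intron), and cic, a repressor that the pathway removes (265, in an intron 8815 bp from a start). The fourth was ttk, another repressor gene. All 3 replicates held the best summits of gro, edl and cic. Of 6 inhibitor genes, 2 had a summit, RasGAP1 with 341 at 697 bp upstream of a start and Mkp3 with 175. Of 8 genes for ligands and their processing, 2 had one, the spi-like ligand gene Krn with 151 and S, which encodes the Spitz chaperone Star, with 143 at 29 bp upstream of a start. Other receptor tyrosine kinases and their ligands had the lowest share, 3 of 16 (18.8%). These were tsl with 286, Pvr with 139, and trk with 138, the last nearest to a start of Utx. The share is near the 19% of all protein-coding genes, but gene length was not matched. In this list bnl, ths and Pvf3 are longer than 40 kb and had no summit, whereas 48.7% of genes of 40 kb or more had one.

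**Figure D4:**
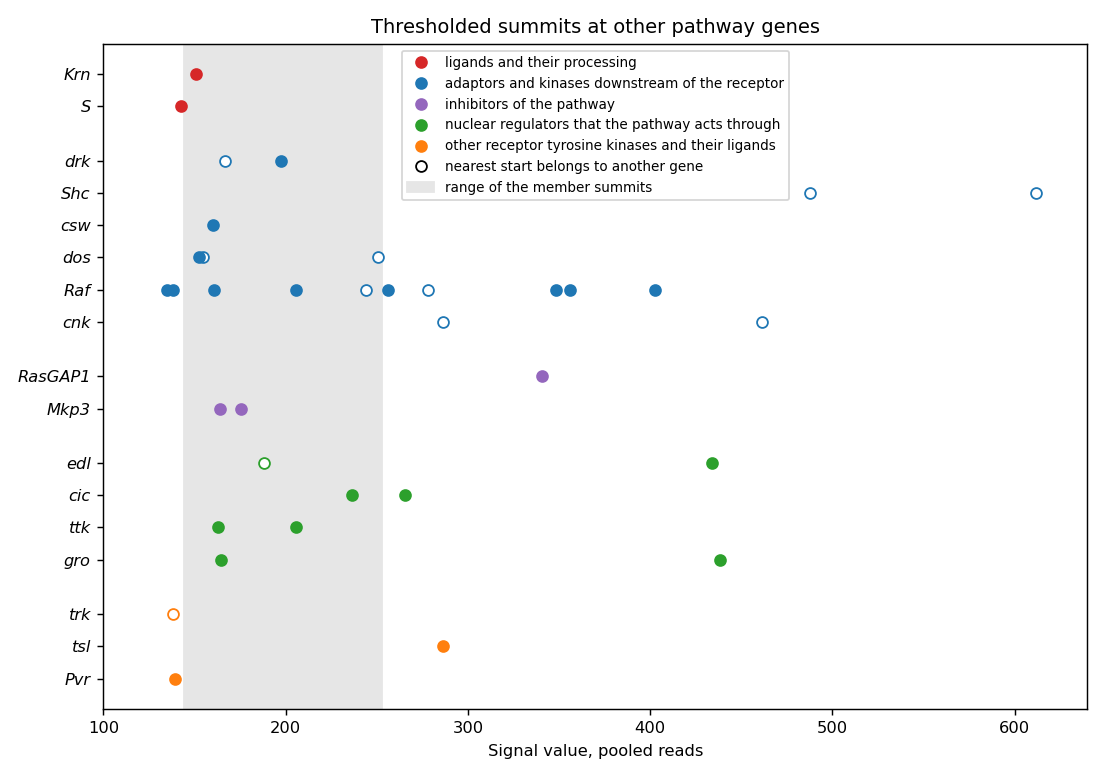
Pooled signal value (horizontal axis, no stated scale) of each thresholded summit at the 17 other pathway genes that have one, coloured by list; open circles are summits nearest to a start of another gene, and the grey band is the range of the 18 summits at the 10 genes, 144 to 253. Raf, gro, edl, cic, RasGAP1 and tsl have filled points to the right of the band.

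As many summits as at Egfr and pnt, 4 or more, were counted at 0.802% of protein-coding genes, 110 of them outside the 10. Those with the most, longer genes first among equals, were sbb with 12 over 79.1 kb, kirre with 11 over 394.1 kb, Eip75B with 11 over 113.7 kb, CG1677 with 10 over 124.7 kb and Svil with 10 over 121.6 kb. Raf, described above, had 10 as well over its 48.4 kb.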

How the data were processed

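ChIP-seq of FoxP-GFP in whole prepupae had been done in 3 biological replicates, 1 group, per the labels. Sonicated fragments were 200 to 800 bp long, per the labels. The authors deposited region lists with a signal value, a score with no stated scale, derived from read alignments with 1 common control file, per the file sheets. For the aligner and peak caller, nothing is given in the sources used here. Per the file sheets, the thresholded list passed an irreproducible discovery rate step (its optimal set), and the other lists, which include background regions, were the input of that step. Neither read depths nor control chromatin were analysed here, and no interval is given. The dm3 lists were not used.

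Coordinates are dm6 and 1-based. Gene models came from Ensembl release 115 (BDGP 6.54) and sequence from RefSeq (release 6), whose arm lengths matched. Scripts used Python 3.11.15, numpy 2.4.6 and matplotlib 3.10.9. The rules for placing, ranking and matching regions were tested on simulated regions. Mitochondrial regions were left out of the shares over the arms. A replicate's matching region holds the thresholded summit or has the nearest summit within 200 bp. Promoter means within 500 bp of a protein-coding start, and motif windows reach 100 bp to either side of a summit. No test was run, since there is no contrast.

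The 10 genes, the lists of other pathway genes and the motifs were chosen with earlier results of these data known. By the rule for named genes, every summit of the 10 is described, then up to 3 genes per list in order of signal value, then the 5 other genes with the most summits, longer genes first where counts were equal. The other list members named without values, the word CACTGAGAGAAA and the window at pnt summit 4 were chosen after the values were seen. The sequence at aop summit 2 is not reported here. In the list of inhibitors, Gap1 is an older symbol of RasGAP1 and was counted once.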

Additional observations from a re-analysis of the deposited data

How the results depend on the processing

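The number of the 10 genes with a summit was between 4 and 7 under every alternative run. These were the gene body alone, 1 kb or 10 kb upstream, the better-ranked 1207 regions and the pooled list to rank 4830. Regions held by all 3 replicates and leaving out a replicate were also tried. The share of all protein-coding genes was 19% by the main rule and 29.7% to rank 4830. For the other alternatives it is not given, so those counts of genes have no background beside them. The number of summits followed the length of the list, with 8 in its 1207 better-ranked regions and 32 in the pooled list to rank 4830, beside 18. It was 16 for gene bodies alone, 17 with 1 kb and 19 with 10 kb upstream. Leaving out a replicate, which keeps the regions held by both others, gave 10 to 12 summits, with 12 without replicate 1, 11 without replicate 2 and 10 without replicate 3, at 5 or 6 genes. The regions themselves were those called on all pooled reads. The 8 summits held by all 3 became 1 with the 1207 best-ranked regions of each replicate and 18 with the best 4830, and 10 to 12 where a replicate was left out and both others had to hold the summit. It remained 8 where at least 50% of both regions had to overlap. A promoter window of 200 bp left 2 promoter summits in place of 7, and 15 in introns, whereas 1000 bp left both counts as they were. GAGAG was in 7 windows within 50 bp of the summit and 13 within 150 bp, beside 17.2% and 47.3% of arm windows. No paired analysis was possible because there is a single group.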
